A study of Mus musculus with 6 samples.

Results

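The T cell receptor alpha variable genes (Trav) supply the variable front part of the receptor alpha chain, and they were followed here across 6 RNA libraries of regulatory T cells (Tregs), CD4 T cells that depend on the transcription factor Foxp3 and hold immune responses in check. All rows of the deposited expression table whose gene name starts with Trav were taken, which gave 128 of 49585 rows. Of the 6 libraries, 3 carry the label Bach2-cKO, by its name a conditional knockout of the transcriptional repressor BACH2, and 3 carry the label WT. All came from spleens of C57BL/6 mice of 7 weeks, from cells sorted as positive for CD4, CD25 and YFP and negative for B220, and all were stimulated in culture with antibodies to CD3 and CD28 for 24 h. The labels do not name the Cre driver or the deleted exons, nor whether libraries of a group came from separate mice, so p-values reflect just the spread among these libraries, which may be technical.

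A developing T cell joins one Trav segment to one joining segment (Traj) in front of the single constant gene Trac, and the joined chain pairs with a beta chain. The Trav segment encodes the alpha chain loops that mainly touch the MHC molecule, while the junction with Traj forms the loop that differs most between clones. In mice large stretches of the Trav array are repeated, and the letters d and n in segment names mark the repeated copies. A few segments belong to invariant receptors: Trav11 to NKT cells and Trav1 to MAIT cells. Summed over a cell population, Trav RNA shows how many segments are in use and how evenly, but it does not count clones.

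Read totals recovered from the deposited FPKM (fragments per kilobase of gene, relative to library size) were 27703735, 31976067 and 27777210 in the libraries labelled Bach2-cKO, against 43884431, 30893921 and 27697735 in the WT libraries. The Trav rows held 3359, 2921 and 3190 of those reads in the libraries labelled Bach2-cKO, against 5665, 3692 and 3777 in WT, so counting error weighs on every single segment. Bach2 itself stood at 88.9, 105 and 121 FPKM in the libraries labelled Bach2-cKO, against 112, 111 and 99.4 FPKM in WT. Its log2 fold change was -0.05 ± 0.11 (SE; limma adjusted p = 0.812), so whole-gene Bach2 RNA did not separate the groups and does not check the labels. Foxp3, which defines Tregs, stood at 112, 104 and 153 FPKM in Bach2-cKO, against 127, 108 and 113 FPKM in WT. The summed Treg list (Foxp3, Il2ra, Ikzf2, Ctla4 and Il2rb) stood at 1730, 1637 and 1858 FPKM in Bach2-cKO, against 1460, 1263 and 1597 FPKM in WT, without overlap. Of its 5 genes 1 was called higher, the interleukin-2 receptor chain Il2ra, at 502, 486 and 458 FPKM in Bach2-cKO, against 238, 230 and 301 FPKM in WT. Ctla4 stood at 629, 609 and 717 FPKM in Bach2-cKO, against 486, 454 and 598 FPKM in WT, without overlap. Ikzf2 leaned the other way, at 179, 165 and 248 FPKM in Bach2-cKO, against 294, 218 and 281 FPKM in WT, with overlap. Foxp3 and Il2rb also overlapped, so the higher sum does not hold for each gene of the list. Markers of other cells were also present. Beside the counts of called genes in these lists, 7.02% of all tested genes were called higher and 8.31% lower. The summed B cell list stood at 1443, 1858 and 1577 FPKM in the libraries labelled Bach2-cKO, against 979, 1377 and 988 FPKM in WT, with 4 of 7 genes higher, and the CD8 pair Cd8a and Cd8b1 at 99.3, 80.0 and 53.8 FPKM in Bach2-cKO, against 41.2, 44.2 and 40.2 FPKM in WT, with 2 of 2 higher. The gamma delta T cell list stood at 126, 61.0 and 64.3 FPKM in Bach2-cKO, against 17.0, 39.3 and 41.6 FPKM in WT, with 2 of 6 higher. The plasma cell list stood at 193, 226 and 157 FPKM in Bach2-cKO, against 81.7, 92.7 and 94.1 FPKM in WT, with 2 of 3 tested genes higher. The T cell list stood at 1622, 1544 and 1844 FPKM in Bach2-cKO, against 2041, 2007 and 2198 FPKM in WT, with 3 of 7 lower, and the myeloid list at 2.31, 6.62 and 8.39 FPKM in Bach2-cKO, against 2.59, 3.97 and 2.94 FPKM in WT, where 1 of 5 genes reached the level needed for a test. Fewer cells of a type and less RNA per cell cannot be told apart in such bulk samples, and the part of these cells in the Trav values was not tested.

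All 128 rows lie on the plus strand of chromosome 14, from 52427928 to 53977678 on GRCm38, upstream of Trac, which starts at 54220521. They fall into 23 numbered families, and the annotation lists 108 as receptor variable genes and 20 as pseudogenes of such genes. A value above 0 was present in at least 1 library for 106 rows and in all 6 for 69, while 22 rows, 11 of them pseudogenes, were at 0 in every library. By name, 55 rows carry neither letter, 39 carry d and 34 carry n. The rows with neither letter held 68.2%, 71.2% and 70.3% of the Trav FPKM sum in the libraries labelled Bach2-cKO, against 65.6%, 72.1% and 69.2% in WT. The n copies held 23.1%, 18.6% and 18.4% in Bach2-cKO, against 22.8%, 17.2% and 20.6% in WT, and the d copies held 8.71%, 10.2% and 11.4% in Bach2-cKO, against 11.6%, 10.7% and 10.2% in WT. These ranges overlapped between the groups for all 3 kinds. Under 1% of the 50-base words of a transcript occurred in no other Trav row for 3 rows with neither letter. The same held for 20 rows with d and 18 with n. The counting of reads that match several rows is not stated, and its part in these shares was not tested. Low use of the d and n copies can therefore not be read from these shares.

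Summed over all rows, Trav RNA stood at 324, 244 and 306 FPKM in the libraries labelled Bach2-cKO, against 342, 320 and 360 FPKM in WT. The highest library labelled Bach2-cKO lay above the lowest WT library, and the mean log2 difference of -0.23 gave p = 0.2 in a two-sided exact permutation test, in which 3 against 3 libraries cannot go below 0.1. Trac, the constant gene that every finished alpha chain carries, stood at 415, 397 and 470 FPKM in Bach2-cKO, against 491, 490 and 533 FPKM in WT. All 3 libraries labelled Bach2-cKO were below all WT libraries, yet Trac did not pass the test over all genes (log2 fold change -0.24 ± 0.08, SE; limma adjusted p = 0.0849). The Trav sum per unit of Trac was 0.682 ± 0.088 in the libraries labelled Bach2-cKO and 0.675 ± 0.022 in WT (SD, n = 3 each; exact permutation p = 1).

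**Figure D1:**
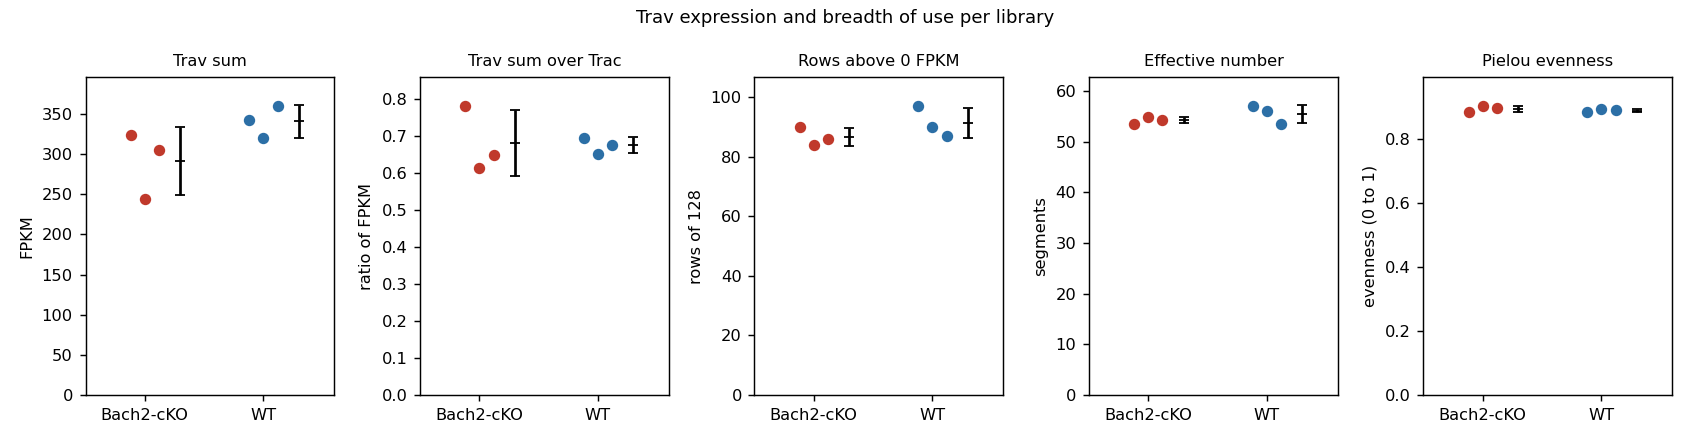
Trav expression and breadth in each library: Trav FPKM sum, its ratio to Trac FPKM, rows above 0 FPKM, effective number of segments and Pielou evenness, with a point per library and, at its right, mean and SD (n = 3 each), Bach2-cKO left and WT right. The groups overlapped in all 5 panels, with sums of 244 to 324 FPKM in Bach2-cKO and 320 to 360 FPKM in WT.

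Breadth of segment use was as follows. Rows above 0 numbered 90, 84 and 86 in the libraries labelled Bach2-cKO, against 97, 90 and 87 in WT (exact permutation p = 0.3). Because this count grows with depth, the number expected when each library is reduced to the smallest Trav total, 2921 reads, was also computed. It was 88.5, 84.0 and 85.4 in the libraries labelled Bach2-cKO, against 92.1, 88.2 and 85.4 in WT. The effective number of segments, the exponential of the Shannon entropy of the shares, was 53.6, 55.0 and 54.4 in Bach2-cKO, against 57.1, 56.0 and 53.6 in WT (exact permutation p = 0.4). Pielou evenness, that entropy divided by its highest possible value, was 0.885, 0.904 and 0.897 in Bach2-cKO, against 0.884, 0.895 and 0.891 in WT (exact permutation p = 0.4). The 10 most used rows held 35.3% to 37.7% of the sum in the libraries labelled Bach2-cKO and 35.9% to 37.7% in WT.

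No segment held more than 5.20% of the Trav sum in any library. The most used one was Trav13-1 at 4.24% and then Trav3-3 at 4.57% and 4.74% in the libraries labelled Bach2-cKO, against Trav3-3 at 4.76% and Trav4-4-dv10 at 5.13% and 5.20% in WT. All top shares in the libraries labelled Bach2-cKO were below all those in WT, at the smallest p the design allows (exact permutation p = 0.1; 0.4 adjusted over 8 library measures). The distance in use between 2 libraries, the percentage of the Trav sum that would have to move between segments to make them equal, averaged 19.4% between the groups and 17.7% within them. This difference of 1.70 percentage points was also at p = 0.1 (one-sided exact permutation; 0.4 adjusted). Across the 128 rows, the correlation of log2(FPKM + 1) was 0.857 to 0.925 for pairs of libraries from different groups and 0.834 to 0.927 for pairs within a group, given as a description.

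Use was uneven along the locus. Ordered by distance, the rows were cut into 3 position classes of about equal size. The class nearest Trac held 61.5% ± 1.1 of the Trav sum in the libraries labelled Bach2-cKO and 61.5% ± 2.6 in WT (SD, n = 3 each; exact permutation p = 1). The middle class held 26.7% ± 2.8 in the libraries labelled Bach2-cKO and 26.9% ± 2.9 in WT, and the farthest class 11.8% ± 1.7 in Bach2-cKO and 11.6% ± 0.38 in WT. A value above 0 was present for 40 of 43 rows in the nearest class, 34 of 42 in the middle and 32 of 43 in the farthest. Rows whose transcripts hold under 1% of 50-base words found in no other Trav row numbered 2, 19 and 20 in these classes, and their part in the gradient was not tested.

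**Figure D2:**
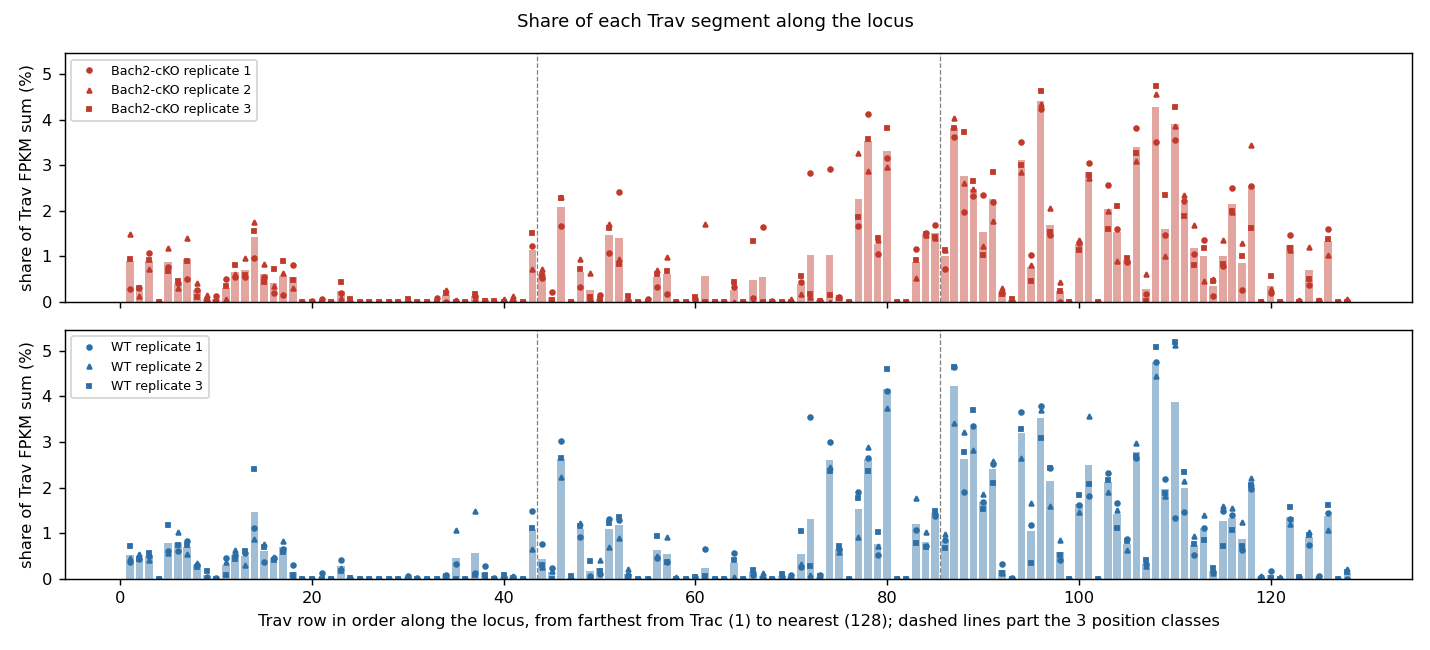
Share of the Trav FPKM sum (%, y axis) of each of the 128 Trav rows in order along the locus (x axis), Bach2-cKO above and WT below, bars for the group mean and symbols for the 3 libraries. Shares are higher toward Trac, where the nearest class held 61.5% in each group, and a few middle rows are high in some libraries of a group and near 0 in others.

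The most expressed segments were shared by both groups. Trav3-3 averaged 12.3 ± 1.9 FPKM in the libraries labelled Bach2-cKO and 16.3 ± 2.0 in WT, Trav7-4 11.1 ± 1.1 in Bach2-cKO and 14.5 ± 3.2 in WT, and Trav13-1 12.8 ± 1.9 in Bach2-cKO and 12.0 ± 0.9 in WT (SD, n = 3 each). Trav14n-3 averaged 9.70 ± 2.27 in Bach2-cKO and 14.2 ± 2.3 FPKM in WT, Trav7-5 9.17 ± 2.20 in Bach2-cKO and 10.9 ± 2.2 FPKM in WT, and Trav14-2 9.97 ± 2.43 in Bach2-cKO and 9.43 ± 0.33 FPKM in WT. Trav16n averaged 10.4 ± 3.2 FPKM in the libraries labelled Bach2-cKO and 8.93 ± 0.39 in WT, and Trav8-1 8.06 ± 2.90 in Bach2-cKO and 8.94 ± 2.09 in WT. None of these 8 passed the test over all genes. By family sums, Trav14 was the highest, at 39.5 ± 2.9 FPKM in the libraries labelled Bach2-cKO and 50.6 ± 3.0 in WT, followed by Trav7 at 38.8 ± 4.6 in Bach2-cKO and 49.8 ± 8.3 in WT and Trav6 at 30.2 ± 11.1 in Bach2-cKO and 37.1 ± 1.1 in WT. The Trav14 sums of the groups did not overlap, nor did those of Trav15, at 0.585, 2.61 and 0.869 FPKM in Bach2-cKO, against 2.66, 4.19 and 3.88 FPKM in WT. Trav2 sums did not overlap either, and these families were all lower in Bach2-cKO. Among single tested genes 20.1% were lower without overlap. As shares of the Trav sum, Trav13 held 9.42% ± 0.40 in the libraries labelled Bach2-cKO and 7.25% ± 0.23 in WT, and Trav16 held 6.30% ± 0.79 in Bach2-cKO and 4.41% ± 0.58 in WT, both without overlap. Trav2, a family of 1 row under 1 FPKM in every library labelled Bach2-cKO, held 0.250% ± 0.098 in Bach2-cKO and 0.466% ± 0.065 in WT, also without overlap. Per unit of Trav sum, 27.5% of all tested genes were higher without overlap and 5.47% lower. Shares were not tested one by one, and a share can rise while its FPKM does not.

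Of the 128 rows, 66 reached 1 FPKM in at least 3 libraries and were tested with all 13766 genes that did so. In the libraries labelled Bach2-cKO 4 Trav segments were lower and 0 higher at a limma adjusted p under 0.05. Over all tested genes 15.3% were called, 8.31% lower and 7.02% higher, so the 6.06% of tested Trav segments that were lower is not above that background. With libraries scaled to the Trav sum, 3 segments were lower and 3 higher, where 2.85% of all tested genes were lower and 11.2% higher. At an unadjusted p under 0.05 there were 14 of 66 segments, 12 of them lower, where 30.8% of all tested genes passed and 17.0% were lower. The median log2 fold change of the tested segments was -0.23, against -0.02 over all tested genes, and 47 of 66 were negative (71.2%), against 53.1% of all tested genes. Values of 10 segments were lower without overlap between the groups and 1, Trav6-3, higher, where 35.6% of all tested genes did not overlap, 20.1% lower and 15.5% higher. As shares of the Trav sum the balance differed, with 8 of 66 segments higher and 5 lower without overlap, where 27.5% of all tested genes were higher and 5.47% lower per unit of Trav sum. Trav2 and Trav7n-6, counted as lower without overlap both in FPKM and as shares, reached the filter through the WT libraries alone.

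**Figure D3:**
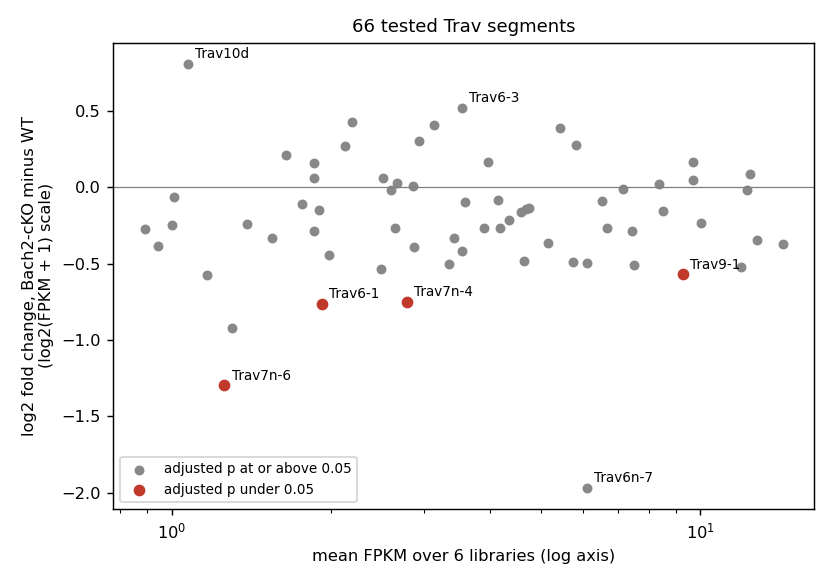
Log2 fold change of the 66 tested Trav segments, Bach2-cKO minus WT on the log2(FPKM + 1) scale (y axis), against mean FPKM over the 6 libraries (x axis, log scale), red for adjusted p under 0.05. The 4 called segments lie below 0, between -0.57 for Trav9-1 and -1.30 for Trav7n-6, and Trav6n-7 is lowest of all without passing.

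Trav7n-6 showed the clearest difference. It stood at 0.379, 0.246 and 0.283 FPKM in the libraries labelled Bach2-cKO, against 2.21, 1.87 and 2.56 FPKM in WT, from 4, 3 and 3 reads in Bach2-cKO, against 37, 22 and 27 in WT. Every library labelled Bach2-cKO lay far below every WT library, with a mean 0.137 times that of WT. Its log2 fold change was -1.30 ± 0.16 (SE; limma adjusted p = 0.00241), which understates the change of so low a gene. It reached the filter through the WT libraries alone, and with a filter on the mean over all 6 libraries the adjusted p was 0.00284. The segment lies at chr14:53324632-53325208 (GRCm38, plus strand). Its closest relative is Trav7-6, nearer Trac, and the 90 bases of their coding V exons that hold most differences are shown to let the copies be told apart, with the differing bases in capitals (GENCODE M21 transcripts, GRCm38, plus strand, chr14:53324975-53325064 and chr14:53717058-53717147).
Trav7n-6: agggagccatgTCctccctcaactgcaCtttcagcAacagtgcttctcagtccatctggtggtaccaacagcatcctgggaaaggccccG
Trav7-6: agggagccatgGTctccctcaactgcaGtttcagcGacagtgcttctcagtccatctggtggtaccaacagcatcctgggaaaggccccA

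Over the 288 bases of the V exon these 2 copies differ at 9 positions. Trav7-6 stood at 4.40, 1.14 and 3.62 FPKM in the libraries labelled Bach2-cKO, against 3.82, 4.44 and 3.08 FPKM in WT, so its groups overlapped (log2 fold change -0.33 ± 0.33, SE; limma adjusted p = 0.541).

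The other called segments differed less. Trav6-1 stood at 1.39, 0.740 and 1.38 FPKM in the libraries labelled Bach2-cKO, against 2.09, 3.26 and 2.67 FPKM in WT (log2 fold change -0.76 ± 0.19, SE; limma adjusted p = 0.0375). Trav9-1 stood at 7.53, 6.05 and 8.14 FPKM in Bach2-cKO, against 11.5, 9.03 and 13.3 FPKM in WT (-0.57 ± 0.16; adjusted p = 0.0493), and was the only called segment among the 10 most expressed. Trav7n-4 stood at 1.06, 2.29 and 2.22 FPKM in Bach2-cKO, against 3.14, 3.89 and 4.13 FPKM in WT (-0.75 ± 0.21; adjusted p = 0.0498). None of the 3 had overlapping groups. Without Bach2-cKO replicate 1, Bach2-cKO replicate 2, WT replicate 1 or WT replicate 3 none of the 3 passed (adjusted p 0.102 to 0.150 for Trav9-1, 0.0587 to 0.112 for Trav6-1 and 0.0706 to 0.122 for Trav7n-4), and without WT replicate 2 Trav6-1 (0.115) and Trav7n-4 (0.133) did not. With libraries scaled to Trac none of the 3 passed (adjusted p 0.102, 0.0547 and 0.0761 for Trav9-1, Trav6-1 and Trav7n-4), nor did any by limma-voom (0.0859, 0.0952 and 0.107), with no filter (0.137, 0.127 and 0.165) or scaled to the Trav sum (0.216, 0.0610 and 0.102). With median-ratio scaling Trav9-1 (0.0573) and Trav7n-4 (0.0540) did not pass, nor did Trav7n-4 with a pseudocount of 0.1 (0.0634) or a filter on the mean (0.0517). Trav15-1-dv6-1, a segment that delta chains can also use, stood at 0, 1.09 and 0.772 FPKM in Bach2-cKO, against 1.41, 2.69 and 1.84 FPKM in WT (-0.92 ± 0.30; adjusted p = 0.0816, and 0.0470 when scaled to the Trav sum). At the other end, Trav6-3 stood at 4.89, 3.60 and 4.56 FPKM in the libraries labelled Bach2-cKO, against 2.43, 3.26 and 2.50 FPKM in WT (0.52 ± 0.15; adjusted p = 0.0571). It passed when scaled to Trac (adjusted p = 0.0179) and to the Trav sum (0.0199). In the fit scaled to Trac 2279 of 13766 tested genes were called higher and 456 lower. Trav10d (0.81 ± 0.32; adjusted p = 0.138, and 0.0158 when scaled to the Trav sum) and Trav3-1 (0.43 ± 0.21; adjusted p = 0.208) had the other 2 of the 3 highest fold changes. Scaled to the Trav sum, log2 fold changes were 0.90 for Trav10d, 0.70 for Trav6-3 and -0.78 for Trav15-1-dv6-1, the last smaller than unscaled. In that fit 1547 of 13766 tested genes were called higher and 393 lower. The 10 rows named as usable by alpha and delta chains held 8.86%, 12.0% and 10.6% of the Trav sum in Bach2-cKO, against 8.44%, 12.0% and 12.2% in WT (exact permutation p = 0.9).

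Trav6n-7, which lies 5.35 kb before Trav7n-6, had the largest negative fold change but differed between libraries of 1 group. It stood at 9.48, 0 and 0.503 FPKM in the libraries labelled Bach2-cKO, against 10.2, 7.87 and 8.47 FPKM in WT, from 94, 0 and 5 reads in Bach2-cKO, against 161, 87 and 84 in WT. The first library labelled Bach2-cKO was at the WT level and the other two were near 0 (log2 fold change -1.97 ± 0.77, SE; limma adjusted p = 0.130). The adjusted p was 0.00142 without that library, 0.323 and 0.244 without Bach2-cKO replicate 2 or 3, 0.0431 by limma-voom and 0.000915 when scaled to the Trav sum. Scaled to the Trav sum the log2 fold change was -1.87, so the lower adjusted p there came without a larger difference. The reason was not tested. The Trav6n-7 transcript is identical to that of Trav6d-7, so reads inside it cannot be assigned by sequence. The sum of both rows was 9.48, 0.349 and 0.503 FPKM in Bach2-cKO, against 10.4, 8.05 and 8.57 FPKM in WT. The 90-base stretches with most differences from Trav6-7-dv9, the counterpart nearer Trac, show that the first 2 copies are alike, with capitals for bases that differ from or in that counterpart (GENCODE M21 transcripts, GRCm38, plus strand, chr14:53319050-53319139, chr14:53007864-53007953 and chr14:53710185-53710274).
Trav6n-7: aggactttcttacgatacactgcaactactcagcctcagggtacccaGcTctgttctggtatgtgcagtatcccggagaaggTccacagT
Trav6d-7: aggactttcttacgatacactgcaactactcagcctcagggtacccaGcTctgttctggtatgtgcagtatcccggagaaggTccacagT
Trav6-7-dv9: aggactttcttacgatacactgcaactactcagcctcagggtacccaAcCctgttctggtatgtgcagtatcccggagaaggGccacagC

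Over 292 bases Trav6-7-dv9 differs from both at 6 positions, and it stood at 3.43, 4.13 and 2.47 FPKM in the libraries labelled Bach2-cKO, against 1.80, 2.99 and 2.76 FPKM in WT. Trav4n-4, an n copy farther from Trac, was high in 1 library of each group, at 9.18, 0.265 and 0.508 FPKM in Bach2-cKO, against 12.2, 0.274 and 1.02 FPKM in WT. Its counterpart Trav4-4-dv10 stood at 11.5, 9.44 and 13.1 FPKM in Bach2-cKO, against 4.54, 16.4 and 18.7 FPKM in WT, so in WT it was lowest in the library with the most Trav4n-4. In Bach2-cKO this was not so, as Trav4-4-dv10 was lowest in replicate 2, where Trav4n-4 stood at 0.265 FPKM. Together these 2 rows held 20.7, 9.71 and 13.6 FPKM in Bach2-cKO, against 16.7, 16.7 and 19.7 FPKM in WT.

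**Figure D4:**
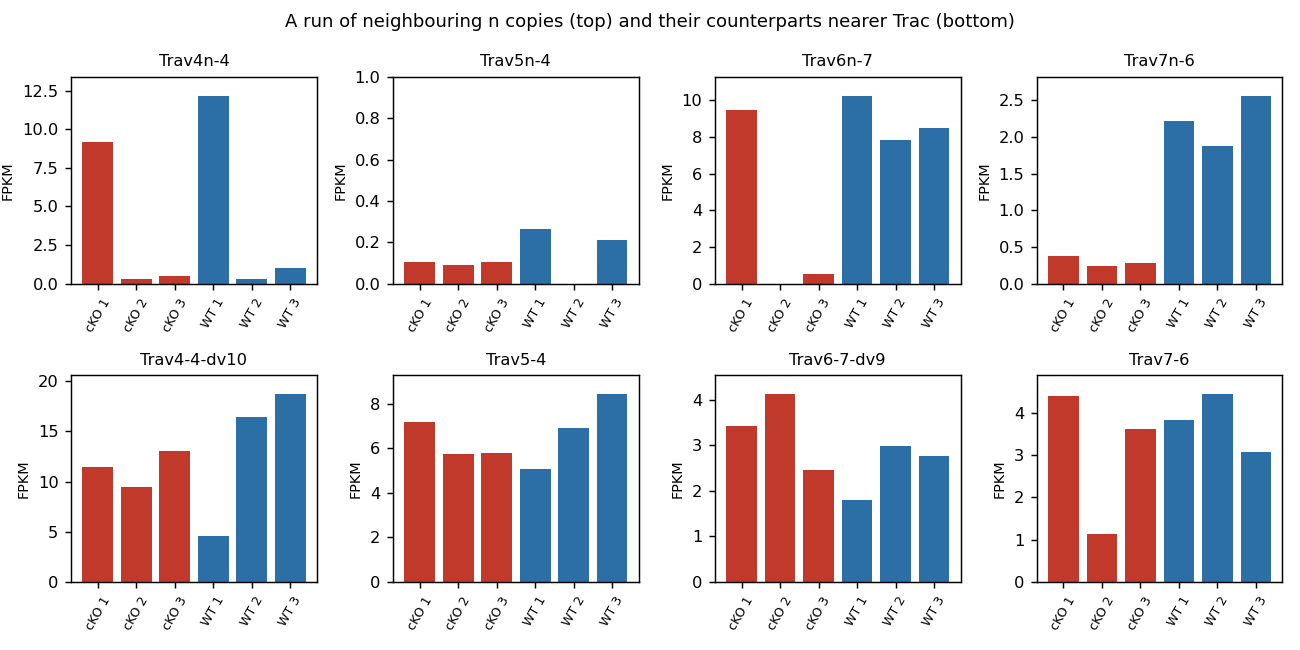
FPKM (y axis, scale set per panel) in each library of 4 neighbouring n copies (top) and their counterparts nearer Trac (bottom), Bach2-cKO in red at the left and WT in blue at the right. Trav7n-6 separates the groups, Trav6n-7 is near 0 in 2 Bach2-cKO libraries, and Trav4n-4 is high in 1 library of each group.

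Such jumps between libraries fell mainly on copies without sequence of their own. A rule chosen after the values were seen took rows with at least 30 reads in a library and a highest value at least 10 times the lowest, with the lowest set to no less than 3 reads. It gave 10 of 66 rows, and in 8 of the 10 under 1% of the 50-base words of the transcripts occur in no other Trav row. Among all 66 rows 9 were of that kind. Beside Trav4n-4 and Trav6n-7 these were Trav14d-2, Trav3d-3, Trav4n-3, Trav9n-3, Trav12n-3 and Trav13n-2. Trav13n-2, for instance, stood at 5.33, 0 and 0 FPKM in the libraries labelled Bach2-cKO, against 0.0765, 0.434 and 0 FPKM in WT. The remaining 2 were Trav10d, with 16.2% words of its own, and Trav7n-6, with 56.6%. How reads that match several rows were counted is not stated, and its part in these values was not tested. Rows with under 1% own words held 8.76%, 3.98% and 3.74% of the Trav sum in Bach2-cKO, against 9.69%, 6.87% and 4.47% in WT.

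**Figure D5:**
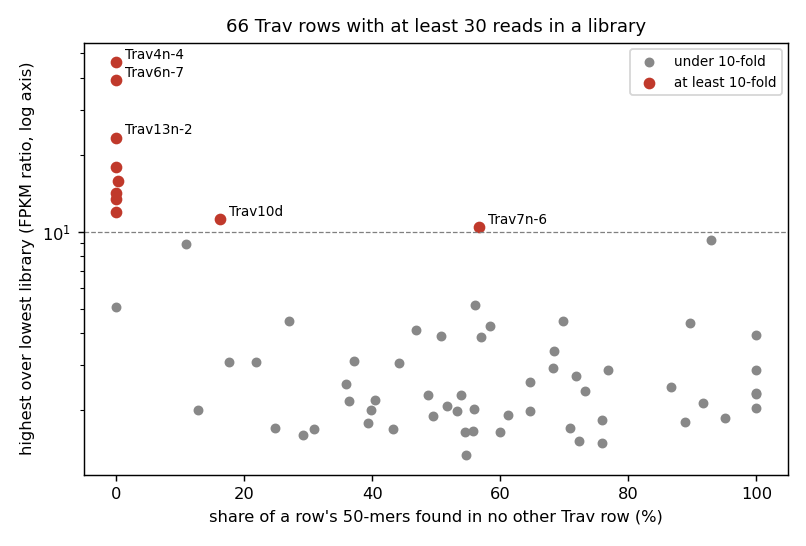
Highest over lowest library (FPKM ratio, log y axis, lowest set to no less than 3 reads) against the share of a row's 50-base words found in no other Trav row (%, x axis), for 66 rows with at least 30 reads in a library, red for at least 10-fold. Of the 10 red rows, 8 lie at the left edge, and Trav7n-6 is the one with most sequence of its own.

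Among the segments of invariant receptors, Trav11 and Trav11d were near 0. Trav11 had 0, 1 and 2 reads in the libraries labelled Bach2-cKO, against 1, 0 and 0 in WT, and its identical copy Trav11d had 1 read in all, too few for a comparison. Neither row has 50-base words of its own, and how reads that match several rows were counted is not stated. Low use of these segments can therefore not be read from these values. The NKT list (Zbtb16, Klrb1c and Trav11) summed to 2.27, 1.89 and 3.05 FPKM in Bach2-cKO, against 1.14, 1.31 and 1.75 FPKM in WT, without overlap. Of its 3 genes 1 was tested and 0 were called by limma. Trav1 stood at 0.928, 3.66 and 2.88 FPKM in Bach2-cKO, against 1.24, 1.48 and 2.58 FPKM in WT, with overlapping groups (log2 fold change 0.27 ± 0.34, SE; limma adjusted p = 0.637).

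The partners of Trav in the receptor showed other patterns. Among the 61 Traj and Trac rows, 48 were tested, and 2 were lower (4.17%), Traj19 and Traj40, and 0 higher, beside 8.31% lower and 7.02% higher over all tested genes. Of the 37 beta chain rows 22 were tested, and 15 were lower (68.2%) and 0 higher, including both constant genes, Trbc1 (log2 fold change -0.73 ± 0.07, SE; limma adjusted p = 0.00116) and Trbc2 (-0.67 ± 0.07; adjusted p = 0.00137). The summed beta variable rows (Trbv) stood at 482, 429 and 475 FPKM in the libraries labelled Bach2-cKO, against 737, 731 and 774 FPKM in WT, where the Trav sums overlapped. Per unit of Trav sum, Trbv RNA was 1.49, 1.76 and 1.55 in the libraries labelled Bach2-cKO, against 2.15, 2.28 and 2.15 in WT, with no overlap (exact permutation p = 0.1, the smallest possible). The constant genes gave the same order, with summed Trbc per unit of Trac of 1.53, 1.45 and 1.38 in Bach2-cKO, against 1.95, 2.05 and 1.96 in WT. The effective number of Trbv segments was 17.1, 16.8 and 16.4 in Bach2-cKO, against 16.7, 16.5 and 16.9 in WT (exact permutation p = 0.9). Trbv rows above 0 numbered 23, 23 and 23 in Bach2-cKO, against 25, 25 and 27 in WT, without overlap (exact permutation p = 0.1, the smallest possible). Unlike the Trav count, this count was not computed at equal reads, so depth and the lower Trbv sums bear on it. The rows above 0 in WT alone, Trbv18, Trbv25, Trbv6 and Trbv10, stood at no more than 0.246 FPKM in any library. Of 10 gamma chain rows 7 were tested and 2 were higher (28.6%), Tcrg-C4 (1.15 ± 0.17; adjusted p = 0.00523) and Tcrg-V4 (0.92 ± 0.21; adjusted p = 0.0268), beside the gamma delta markers given above. Of 7 delta rows 3 were tested and 0 were called by limma, Trdc among them (0.85 ± 0.30; adjusted p = 0.103). The summed delta variable rows (Trdv) stood at 48.7, 21.3 and 20.2 FPKM in Bach2-cKO, against 5.90, 12.2 and 19.9 FPKM in WT. The summed gamma rows named Tcrg stood at 74.1, 39.85 and 39.7 FPKM in Bach2-cKO, against 10.3, 25.1 and 27.9 FPKM in WT. Both were without overlap (exact permutation p = 0.1 each, the smallest possible). Of 20 genes of the CD3 complex and proximal signalling all were tested, with 7 lower (35.0%) and 2 higher. Prkcq, the kinase PKC-theta, was lower (-0.93 ± 0.06; adjusted p = 0.000270), as was the CD3 chain Cd3d (-0.37 ± 0.09; adjusted p = 0.0292). Themis, a signalling adaptor of T cell selection, was higher (1.11 ± 0.12; adjusted p = 0.00147). Of the 4 rearrangement genes Rag1, Rag2, Dntt and Ptcra, 3 were tested and 0 were called by limma.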

How the data were processed

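Poly(A) RNA of 6 libraries, 3 labelled Bach2-cKO and 3 labelled WT, was prepared with an Illumina TruSeq kit. Per the submitters' processing notes, HISAT2 2.0.5, featureCounts 1.5.0-p3 and build mm9 were used. The authors deposited FPKM per gene and library. Positions of all 128 Trav rows equal GENCODE M21, so they are given as GRCm38. Strand use and the handling of reads that match several genes were not found in the sources used.

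Whole reads were recovered from the FPKM steps for 28529 of 28530 genes above 0 (tolerance 0.001 reads). The annotated length gave whole reads for 11267 genes. For 17262 another length was searched for that made the reads whole, so their wholeness is no check of the length. Genes reaching 1 FPKM in 3 or more libraries entered a fit of log2(FPKM + 1) in limma 3.58.1 (trend, no covariate, two-sided) in R 4.3.3, with Benjamini-Hochberg adjustment over all 13766 and a threshold of 0.05. The test was checked on simulated data. Every simulated gene had the same dispersion (spread beyond counting error), so rows with 10-fold jumps within a group were not covered. Library measures were tested by exact permutation. Replicates of a group differed by more than sampling noise (chi-square per degree of freedom 10.6 to 23.6). Named Trav rows were the 10 highest by mean, all called, the 3 highest and 3 lowest fold changes, top shares and Trav1, Trav11 and Trav11d. Others were named after their values were seen. Members and lists were chosen with earlier results of these data known. Figures used Matplotlib 3.10.9 under Python 3.11.15.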

Additional observations from a re-analysis of the deposited data

How the results depend on the processing

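Counts of calls and the fold changes of 19 named segments were recomputed under other filters, scalings and a pseudocount of 0.1, with limma-voom and without each library, and the 8 library measures on other sets of rows, on reads and without each library. Family sums, marker lists and measures of other loci were not recomputed. Scaling to Trac, summing identical copies, dropping rows of 10-fold jumps and keeping rows with at least 20% own words were added after the data were seen. Trav7n-6 was called in all 15 settings (log2 fold change -2.71 to -1.19). Fits without a library kept the rows chosen from all 6 libraries. Trav7n-6 reached that filter through the WT libraries alone, so its calls there are not independent of the filter. With no filter its limma adjusted p was 0.0104. The number of segments called lower was 1 with no filter (501 genes higher and 681 lower of all 28530) and 2 with median-ratio scaling (1085 and 1015 of 13766). It was 1 when scaled to Trac (2279 genes higher and 456 lower in all) and 2 by limma-voom (1167 and 1343). Without a library it was 1 to 7, with 492 to 1224 genes higher and 560 to 1375 lower in all. The number higher was 3 when scaled to the Trav sum (1547 genes higher and 393 lower in all), 1 when scaled to Trac and 0 in every fit without a library. Scaling to the Trav sum or to Trac moved the median of all genes from -0.02 to 0.20. The replicate numbers gave no sign of pairing, though so few pairs cannot exclude it. Deviations from group means correlated at -0.053, 0.0058 and -0.215 for same-numbered libraries, and at -0.134 to 0.178 for differently numbered ones. With the replicate block, 5 segments were lower, with Trav6-1 lost (limma adjusted p = 0.101) and Trav14n-3 (0.0360) and Trav15-1-dv6-1 (0.0469) gained. Genes called in all were 625 higher and 657 lower with the block, against 967 and 1144 in the main fit.

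Without a library, the log2 Trav sum over Trac ranged from -0.096 to 0.079 and the difference in the share of the nearest class from -1.33 to 1.24 points. Evenness differences were -0.00067 for filtered rows, -0.0078 for families and -0.00085 for rows with own words. With families summed, detected rows differed by 0.667 and the effective number by 0.025. Trav4-4-dv10 turned positive with a pseudocount of 0.1 (0.0051), median-ratio scaling (0.0064), Trav-sum scaling (0.20), Trac scaling (0.20), limma-voom (0.15) and without Bach2-cKO replicate 2 (0.10), WT replicate 2 (0.23) or WT replicate 3 (0.32), with -0.60 to 0.32 over libraries left out. Trav8-1 turned positive with Trav-sum (0.054) and Trac scaling (0.059), and Trav14-2 (-0.11 to 0.22 over libraries left out) and Trav16n (-0.023 to 0.40) turned negative without Bach2-cKO replicate 1. The cause was not tested. Depth limits rows of few reads.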
